A study of Homo sapiens with 9 samples.

Results

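The comparison set HRD cells against HRA cells, the daunorubicin-resistant and the cytarabine-resistant derivative of the HL-60 leukaemia line. Its members were the genes with a normalized read count of at least 10 in at least 3 of the 6 HRD and HRA libraries, which were 12347 of the 20637 genes in the table. No difference between the lines entered this choice. The third-highest of the 6 values was 10.4 in the member nearest the limit and 9.92 in the nearest gene left out. The members held 99.96% of the reads.

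HL-60 is an established human line of acute myeloid leukaemia with the character of promyelocytes, the granule-forming precursors of neutrophils. The HRA line is Ara-C (cytarabine) resistant and was kept in 100 nM of the drug, and the HRD line is DNR (daunorubicin) resistant and was kept in 30 nM of it. Both lines and the parental cells were grown in RPMI with fetal bovine serum for no more than 10 passages, and each group gave 3 libraries of polyadenylated RNA that the labels call biological replicates. Each line kept its drug in the medium, so resistance and exposure to the drug cannot be told apart. Each resistance is represented by a single line, so the tests below measure the spread among libraries of these 2 lines and not among independent derivations. Parental values (3 libraries, for which no drug is named) are given beside some results as a description.

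Cytarabine is a deoxycytidine analogue. It enters through nucleoside transporters, is phosphorylated in steps that begin with deoxycytidine kinase, and is then built into DNA, where it stops synthesis. Daunorubicin is an anthracycline that traps topoisomerase II on cut DNA, and cells can lower its level by pumping it out with ATP-binding cassette (ABC) transporters. The genes below are therefore ordered from those that handle each drug, through genes nearly silent in 1 line, to the myeloid programme, growth and repair, metabolism and chromosomal position.

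Reads per library ranged from 25225828 to 47537926 in HRA and from 22300023 to 66563328 in HRD. Values are normalized reads, that is reads over the library's size factor, and 3 reads correspond to 1.49 to 4.52 normalized reads. The promyelocyte markers MPO, AZU1, PRTN3, CTSG, MYB, SPI1 and CD33 were read in both lines, whereas ELANE, the neutrophil elastase gene, had 4 reads over the HRA and 2 over the HRD libraries. Of the other cell types' markers, 0 of 3 T cell, 1 of 2 erythroid, 0 of 1 megakaryocyte and 0 of 2 fibroblast genes in the table reached the level of the comparison. The B cell markers summed to 731 to 809 normalized reads in HRA and 267 to 312 in HRD, nearly all from PAX5, and the epithelial markers to 91.4 to 152 in HRA and 283 to 399 in HRD, nearly all from KRT8. MS4A1, a defining B cell gene, had 0 reads in both lines. In bulk RNA, fewer cells of a type and less RNA per cell cannot be told apart.

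The lines differed widely. On the log2(normalized reads + 1) scale, 3768 genes (30.5% of those tested) differed at an adjusted p below 0.05, of which 1743 (14.1%) were higher and 2025 (16.4%) lower in HRD. At least 2-fold apart were 764 genes (6.19%), with 357 (2.89%) higher and 407 (3.30%) lower. The 3 HRD values did not overlap the 3 HRA values in 5838 genes (47.3%), 2836 (23.0%) above and 3002 (24.3%) below. Called genes with |log2| of 3 or more numbered 40 higher and 73 lower. Of the tested genes, 97 reached a value of 10 only in HRD and 105 only in HRA. Such a gene had to differ, so those named below are given by their values with no test. Across all tested genes the median log2 difference was 0.00 and the median standard error 0.13. The called counts of the gene groups below are to be read beside the 30.5% called over all tested genes.

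The first principal component held 69.8% of the variance and separated the lines, and the second held 13.7% and set replicate 2 of both lines apart from the other 4 libraries. Replicates of a line were not copies of each other, since their log2 values differed by a root mean square of 0.31 to 0.47. Without replicate 2 of each group 1812 genes were called, 762 higher and 1050 lower. Without HRA replicate 1 there were 2387, 1053 higher and 1334 lower.

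**Figure D1:**
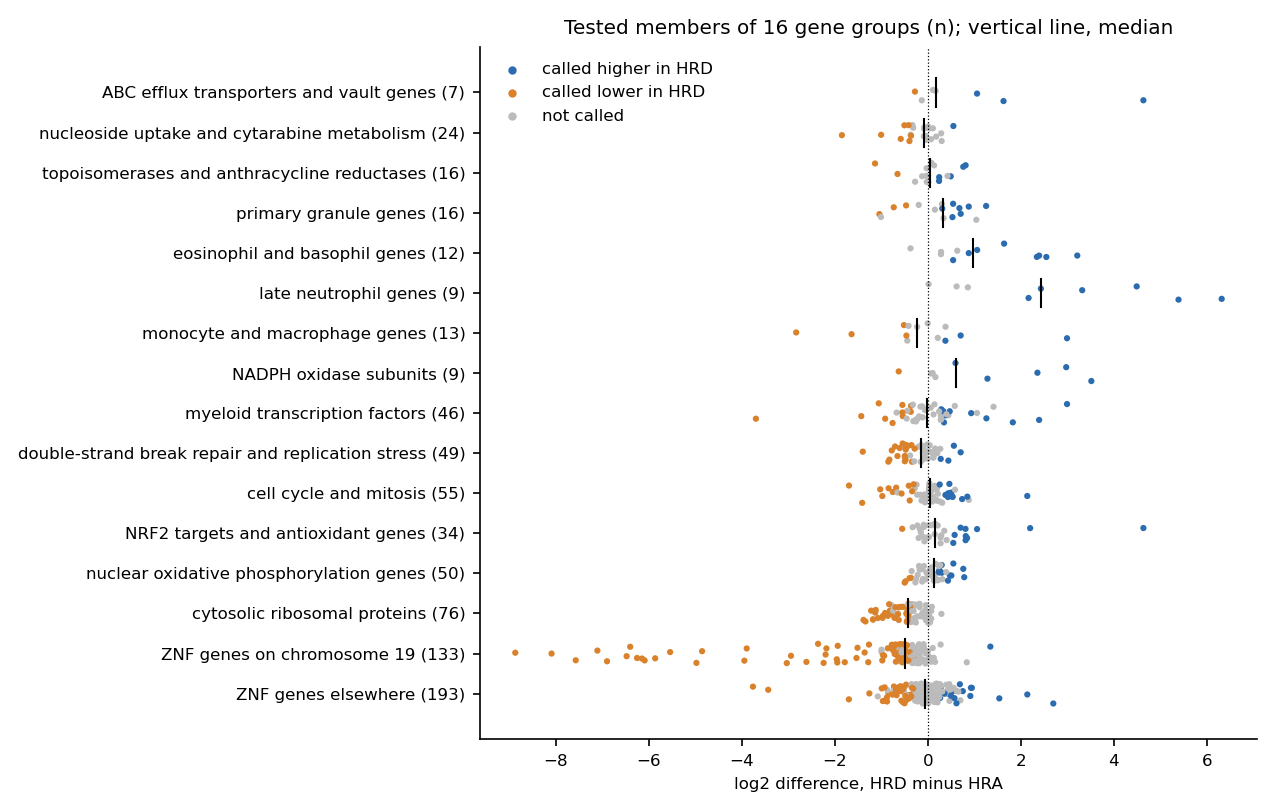
Log2 difference of HRD minus HRA (x axis) for each tested member of 16 gene groups (y axis, number tested). Blue points were called higher and orange points lower in HRD, grey points were not called, and black lines mark medians. The ribosomal protein genes and the ZNF genes of chromosome 19 lie mostly left of 0, with medians of −0.41 and −0.49.

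Of the tested drug efflux genes, ABCC1 differed most. It encodes MRP1, a pump that exports anthracyclines and glutathione conjugates. ABCC1 stood at 1916, 2039 and 1797 normalized reads in HRA and 50748, 47459.6 and 44838 in HRD, beside 1713, 1939.7 and 1746 in parental cells. All HRD libraries lay far above the HRA and parental libraries, which had like levels. The log2 difference was 4.64 ± 0.083 (SE), or 24.9-fold (adjusted p = 2.44e-11). Of the 7 tested genes in the list of ABC transporters and the vault gene, 3 were higher, 1 was lower and 3 were not called. MVP, the major vault protein gene, was at 9.07, 14.9 and 7.31 in HRA and 30.3, 48.2 and 24.6 in HRD (log2 1.63). Its HRA libraries alone would not have carried it past the filter, so it is given with no test. The 3 higher genes include MVP. ABCC2, another conjugate pump gene, was at 18.8, 14.9 and 15.8 in HRA and 37.2, 27.1 and 43.8 in HRD (log2 1.06 ± 0.29, adjusted p = 0.0176), a call that ended without replicate 2 of each group, HRA replicate 2 or HRD replicate 3 (adjusted p up to 0.0625). ABCC5, a pump of cyclic nucleotides, was lower, at 946, 1047 and 1009 and 898, 782 and 804 (log2 −0.27 ± 0.09, adjusted p = 0.0385). That call ended without any single HRA library, HRD replicate 2, HRD replicate 3, parental replicate 2 or replicate 2 of each group, without the filter and in the 6 libraries alone (adjusted p up to 0.312). ABCB1, which encodes P-glycoprotein, had 1 read over the HRA and 2 over the HRD libraries, and ABCG2 had 14 and 24, so differences in these pumps were not detectable at this depth.

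ABCC1 lay in a run of 7 consecutive tested protein-coding genes of chromosome 16, C16orf45, KIAA0430, NDE1, MYH11, FOPNL, ABCC1 and NOMO3, that were each called and at least 2-fold higher in HRD (C16orf45 and MYH11 reached the filter only there), with a median log2 difference of 5.02. FOPNL, a gene of the centriole and cilium, stood at 2793, 2835 and 2641 in HRA and 92658, 93151 and 82471 in HRD, a 32.4-fold difference (log2 5.02 ± 0.079, adjusted p = 1.17e-11). NDE1, a dynein partner needed in mitosis, stood at 2119.9, 2228 and 1992 in HRA and 88119, 77322 and 65952 in HRD (log2 5.18 ± 0.12, adjusted p = 2.51e-10). The spread among the HRD libraries of either gene was small beside the gap between the lines.

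MYH11, the smooth muscle myosin heavy chain gene, had 1.40, 2.71 and 2.44 normalized reads in HRA and 244, 244 and 227 in HRD. It overlaps NDE1 on the opposite strand, and whether counting used strand is not given in the sources used here, so reads of these 2 genes cannot be told apart with certainty. KIAA0430, which encodes an RNA regulator, differed by log2 4.07 ± 0.11. NOMO1, NOMO2 and NOMO3 are nearly identical copies between which reads can be split, and their log2 differences were 1.92, 2.65 and 5.09.

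Of 24 tested genes in the wider neighbourhood of ABCC1, 12 were higher and 6 lower. Outside the run, SMG1 (log2 0.85), ARL6IP1 (1.02) and COQ7 (0.93) were also higher, and XYLT1 (−0.73), BFAR (−0.73) and PARN (−0.53) were lower. These 6 were named after their values were seen. Without replicate 2 of each group the higher count was again 12 and the lower count 3. In the neighbourhood of ABCB1 on chromosome 7, 0 of 22 tested genes were higher and 8 lower, with a median of −0.26, and this count was 5 without replicate 2.

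**Figure D2:**
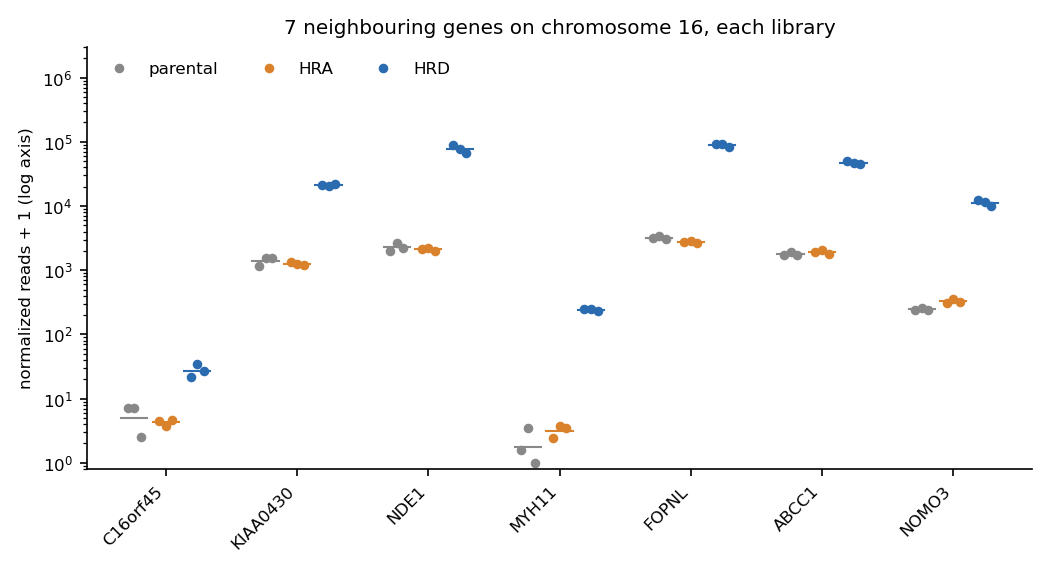
Normalized reads + 1 (log y axis) of 7 consecutive tested genes of chromosome 16 in the 3 libraries each of parental (grey), HRA (orange) and HRD (blue) cells. Points are libraries and short lines are means on the log scale. Every HRD library lies above every HRA and parental library for all 7 genes.

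Of the cytarabine genes (nucleoside uptake, activation and breakdown) 24 were tested, and 1 was higher and 7 lower in HRD, with a median of −0.08. Log2 differences in this list ran from −1.84 to 0.55, and 2 of the lower genes were at least 2-fold lower. The lower count was 4 without replicate 2 of each group. DCK encodes deoxycytidine kinase, the activating enzyme, and its values were 3246, 3191 and 3141 in HRA and 4081, 3465 and 3348 in HRD, beside 4061, 4252 and 3816 in parental cells. The HRD libraries lay above the HRA ones, but the difference of 0.18 ± 0.087 did not pass (adjusted p = 0.137). CMPK1, the kinase that adds the second phosphate to pyrimidine nucleotides, was at 11771, 11123 and 10949 in HRA and 6612, 5462 and 4945 in HRD, a 2.00-fold lower level (adjusted p = 4.83e-05). RRM1, the large subunit of ribonucleotide reductase, differed by −0.50 ± 0.10 (adjusted p = 0.00471), and NT5C3A, a pyrimidine nucleotidase, by −0.41 ± 0.086 (adjusted p = 0.00489).

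The nucleoside transporter gene SLC29A1 differed by −0.08 ± 0.12 (adjusted p = 0.625). SAMHD1, whose product hydrolyses the active triphosphate of cytarabine, differed by −0.08 ± 0.088 (adjusted p = 0.533), and RRM2, the small reductase subunit, by −0.37 ± 0.17 (adjusted p = 0.12). None of these 3 passed. NT5C2, a nucleotidase, was lower, differing by log2 −0.39 ± 0.085 (adjusted p = 0.00582), a call that ended without replicate 2 of each group (adjusted p = 0.0554). CDA, the cytidine deaminase gene, had 4 reads over the HRA and 2 over the HRD libraries.

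TOP2A, the daunorubicin target and topoisomerase II of cycling cells, was lower in HRD. It stood at 25971, 24054 and 25229 in HRA, 17892, 15305 and 14926 in HRD and 27577, 30142 and 34136 in parental cells, with HRD below both others (HRD minus HRA log2 −0.65 ± 0.10, adjusted p = 0.000995). The mitochondrial topoisomerase gene TOP1MT was also lower, at 2373, 2265 and 2306 in HRA and 979, 1069.5 and 1119.9 in HRD (log2 −1.13 ± 0.11, adjusted p = 3.2e-05). TDP2, whose product removes topoisomerase II from DNA ends, was higher by 0.49 ± 0.067 (adjusted p = 0.000388). TOP2B differed by 0.25 ± 0.083 (adjusted p = 0.0428), and this call ended when any single HRA or HRD library was left out, without parental replicate 2, under TMM scaling, without the filter and with edgeR, with adjusted p-values of up to 0.192 over the alternatives. CBR1, a carbonyl reductase that converts daunorubicin to daunorubicinol, differed by −0.02 ± 0.11 (adjusted p = 0.89). Over the 16 tested topoisomerases, tyrosyl-DNA phosphodiesterases and reductases, 5 were higher and 2 lower. The higher count was 3 under TMM scaling, without the filter and without any single HRA library, HRD replicate 1, HRD replicate 2 or parental replicate 2, and it was 2 without replicate 2 of each group.

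The sharpest differences were of genes read in HRA and nearly unread in HRD. At a mean of at least 100 normalized reads in one line and at most 3 reads over the libraries of the other, 11 genes were found in this direction and 0 in the other. The contrast itself chose them, so they are described without a test. The promoters of 3 of them are shown, because PSMD5 starts beside the antisense transcript PSMD5-AS1, CYB5A holds the most CG pairs of the set and ZNF577 stands for the zinc finger genes. The 250 bases before the RefSeq start (GRCh38.p14) are printed 5′ to 3′ in the direction of the gene, with each CG pair, the site of DNA methylation, in capitals. They lie at chr9:120842923-120843172, minus strand (PSMD5), chr18:74291964-74292213, minus strand (CYB5A) and chr19:51887952-51888201, minus strand (ZNF577).
PSMD5: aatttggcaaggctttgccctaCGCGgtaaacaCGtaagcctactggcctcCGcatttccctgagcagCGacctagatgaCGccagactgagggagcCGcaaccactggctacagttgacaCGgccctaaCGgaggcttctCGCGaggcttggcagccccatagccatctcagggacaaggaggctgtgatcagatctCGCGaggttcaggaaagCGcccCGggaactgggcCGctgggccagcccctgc
CYB5A: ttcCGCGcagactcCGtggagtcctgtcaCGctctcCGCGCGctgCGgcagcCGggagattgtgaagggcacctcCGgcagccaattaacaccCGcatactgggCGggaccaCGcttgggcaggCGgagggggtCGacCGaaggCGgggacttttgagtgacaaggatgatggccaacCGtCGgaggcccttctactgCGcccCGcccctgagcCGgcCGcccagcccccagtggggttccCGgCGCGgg
ZNF577: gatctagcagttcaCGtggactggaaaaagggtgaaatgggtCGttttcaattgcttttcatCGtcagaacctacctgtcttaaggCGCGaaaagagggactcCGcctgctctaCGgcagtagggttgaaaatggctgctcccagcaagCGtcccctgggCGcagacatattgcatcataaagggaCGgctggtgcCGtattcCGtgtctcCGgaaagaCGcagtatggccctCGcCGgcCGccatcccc

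The letters CG, which read the same on both strands, occurred 16, 26 and 17 times in these windows. Of the 10 protein-coding genes in the set, 8 had a promoter in the RefSeq table, with 4 to 26 CG pairs and a median of 15.5. The median was 21 over the 9087 of 10948 tested protein-coding genes with a promoter. Methylation itself was not measured here.

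PSMD5 encodes a chaperone that helps assemble the regulatory particle of the proteasome. It was at 1027, 965 and 1033 in HRA and 0, 0 and 1.07 in HRD, with 868, 861 and 1059.7 in parental cells. The 3033 reads over the HRA libraries against 1 over the HRD libraries give a depth-scaled ratio of 3664 (95% exact counting interval 657 to 144771, which covers counting error only). PSMD5-AS1 had 405 reads in HRA and 0 in HRD, at least 163-fold lower against a floor of 3 reads over the group. Since it is not known here whether counting used strand, reads of this antisense pair cannot be told apart with certainty.

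CYB5A encodes cytochrome b5, an electron donor of the endoplasmic reticulum. Its values were 979, 812 and 827 in HRA and 0.496, 0 and 1.07 in HRD, with 929, 665 and 585 in parental cells, and the ratio of 2681 to 2 reads was 1619 (95% counting interval 448 to 13379). NFATC2, a transcription factor activated by calcineurin, had 1310 reads over HRA and 3 over HRD (ratio 528, 95% counting interval 180.1 to 2561). RNF144A, a ubiquitin ligase gene, had 468 and 1 (ratio 565, 95% counting interval 101 to 22378). Parental cells read all of these genes as well.

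LPL, the lipoprotein lipase gene, stood at 1487, 1461 and 1202 in HRA, 0 in every HRD library and 169, 145 and 24.0 in parental cells. The HRD level was at least 1691-fold lower than that of HRA. The HRA libraries lay above every parental library for LPL, and likewise for RNF144A, ZNF260, ZNF714 and ZNF614.

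The remaining 5 of the 11 genes were ZNF260, ZNF714, ZNF614, ZNF649 and ZNF577. They encode C2H2 zinc finger proteins, a family whose members with a KRAB domain recruit TRIM28 to DNA, and all 5 lie on chromosome 19. ZNF260 had 1595 reads over the HRA libraries and 1 over HRD, and ZNF649 had 472 and 1. ZNF714, ZNF614 and ZNF577 had 817, 572 and 353 reads in HRA and 0 in HRD, which places HRD at least 329-fold, 230.3-fold and 142-fold lower.

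**Figure D3:**
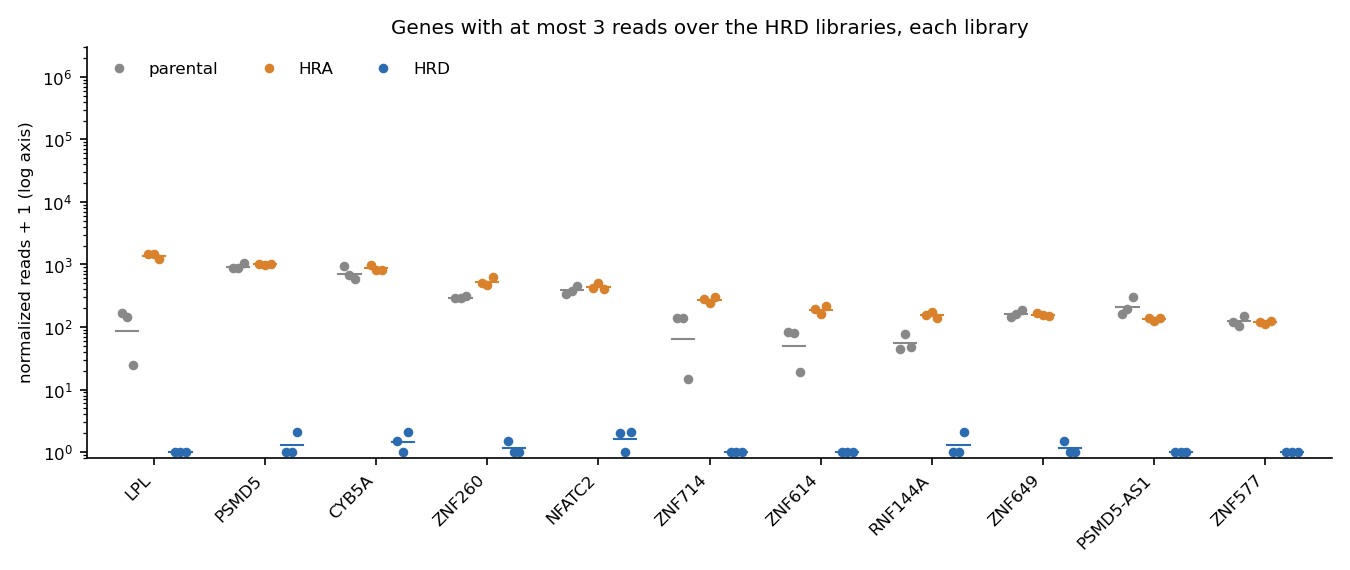
Normalized reads + 1 (log y axis) of the 11 genes with at most 3 reads over the HRD libraries, in parental (grey), HRA (orange) and HRD (blue) libraries. Points are libraries and short lines are means on the log scale. HRD lies at or near 1, that is 0 reads, for all 11, while every HRA and parental library lies above.

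Of 133 tested zinc finger (ZNF) genes of chromosome 19, 1 was higher and 72 lower in HRD, 17 of which reached the filter only in HRA. At least 2-fold lower were 32, and the median of the 133 was −0.49, which was also the median with the 9 genes unread in HRD set at their bound. The lower count ran from 50 to 80 over all alternatives. The 193 tested ZNF genes elsewhere had a median of −0.05. Of them, 16 were higher and 43 lower (30.6% called, against 30.5% of all tested genes), 1 of the latter reaching the filter only in HRA. Without replicate 2 of each group these were 9 and 21, and without HRA replicate 1 they were 10 and 28. The higher count was 10 without HRD replicate 3, and the lower count 28 without HRA replicate 3. The median log2 difference of the 133 chromosome 19 ZNF genes from parental cells was 0.19 in HRA and −0.27 in HRD. The stretch of ZNF850, ZNF790 and ZNF345 had 256, 212 and 235 reads over the HRA libraries and 0 in HRD, and HRD was thus at least 103-fold, 85.4-fold and 94.6-fold lower.

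ZNF776 stood at 232, 230.0 and 228 in HRA and 2.98, 1.51 and 1.07 in HRD, with 209, 227 and 229 in parental cells. ZFP30, another zinc finger gene of this chromosome, was at 134, 139 and 188 and 5.95, 9.04 and 10.7, a 16.4-fold lower level in HRD (log2 −4.03). Its HRD libraries alone would not have carried it past the filter, so it is given with no test. Off chromosome 19, ZNF704 stood at 788, 805 and 819.9 in HRA and 76.9, 40.7 and 64.1 in HRD, but parental cells were also low, at 43.8, 54.0 and 24.0. ZNF618 went the other way, at 154, 195 and 202 in HRA and 912, 667 and 867 in HRD (log2 2.14 ± 0.18, adjusted p = 1.48e-05). Reads of paralogous zinc finger genes can be split between copies.

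Genes that write or read DNA methylation or partner KRAB proteins had 7 higher and 5 lower of 34 tested. Higher calls numbered 3 or 4 without any single HRA library, without HRD replicate 1 or HRD replicate 2, and without replicate 2 of each group, which also left 2 lower. DNMT3A, a de novo methyltransferase, was at 93.5, 81.2 and 91.4 in HRA and 194, 199 and 190.2 in HRD (log2 1.13 ± 0.15, adjusted p = 0.00038). UHRF1, which directs maintenance methylation, was lower, differing by −0.56 ± 0.11 (adjusted p = 0.00312), and the maintenance enzyme DNMT1 by −0.37 ± 0.067 (adjusted p = 0.00195), a call that ended without replicate 2 of each group (adjusted p = 0.0617). TRIM28, named outside the rule, differed by −0.15 and was not called.

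Among the largest differences towards HRD were several genes outside these groups. ACTL8, an actin-like gene expressed mainly in testis, was at 8.38, 6.76 and 15.8 in HRA, 2046, 1765 and 1417 in HRD and 107, 106 and 43.5 in parental cells. HRA lay below and HRD above all parental libraries (HRD minus HRA log2 7.33). The HRA libraries alone would not have carried ACTL8 past the filter, so it is given with no test. SORCS2, a receptor of the sortilin family, had 1.40, 5.41 and 1.22 in HRA and 236, 298 and 274 in HRD. PLCB1, a phospholipase C gene, was at 0.698, 4.06 and 1.22 and 160.2, 154 and 199.8, and SPRY4, an inhibitor of receptor tyrosine kinase signalling, at 3.49, 4.06 and 3.65 and 110.1, 131 and 107. All 3 reached the filter only in HRD. CLECL1, a C-type lectin-like gene, differed by 4.73 ± 0.26 (adjusted p = 3.84e-07). Towards HRA, NCALD, a neuronal calcium sensor gene, stood at 323, 277 and 335 in HRA and 0.992, 1.51 and 2.14 in HRD, and parental cells were at 300.2, 299 and 269.8.

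Several eosinophil granule genes were higher in HRD. Eosinophils store a toxic crystalloid granule whose proteins include PRG2, the major basic protein, EPX, the eosinophil peroxidase, and the ribonucleases RNASE2 and RNASE3, and CLC encodes the protein of Charcot-Leyden crystals. CLC was at 1819, 2509 and 2465 in HRA, 20742, 28332 and 15328 in HRD and 292, 586 and 211 in parental cells. EPX was at 913, 1054 and 848, 4318, 7723 and 4923 and 159, 148 and 343 in the same order. For both genes the 3 groups did not overlap, with HRA between parental and HRD cells.

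The HRD minus HRA difference was 3.21 ± 0.32 for CLC (adjusted p = 4.71e-05) and 2.55 ± 0.29 for EPX (adjusted p = 0.000122). PRG2 was at 12679, 18505 and 15171 in HRA and 70713, 133652 and 49519 in HRD, a 5.08-fold difference (log2 2.35 ± 0.40, adjusted p = 0.00163). RNASE3 was higher by 0.88 ± 0.19 (adjusted p = 0.00574). Of 18 genes of eosinophils and basophils in the table, 12 were tested, and 8 were higher and 0 lower, with a median of 0.97. GATA1, an erythroid and eosinophil transcription factor, had 8 reads over the HRA libraries and passed the filter only through HRD. The count of 8 was 4 without replicate 2 of each group and 5 without HRA replicate 2.

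Primary granule genes, which mark promyelocytes, were mixed, with 7 higher and 3 lower of 16 tested and a median of 0.33. The higher count was 3 without replicate 2 of each group and 4 without HRA replicate 2, and the lower count was 1 without replicate 2 of each group or HRD replicate 1 and 0 without HRA replicate 2. MPO, the myeloperoxidase gene, stood at 279660.2, 250409.6 and 264367 in HRA and 199686, 256004 and 242302 in HRD, and the difference of −0.19 ± 0.15 did not pass (adjusted p = 0.358). LYZ, the lysozyme gene, was at 7265, 6504 and 6877 in HRA and 10528, 11316 and 11240.1 in HRD (log2 0.68 ± 0.087, adjusted p = 0.000249), above 2813, 3179 and 3435 in parental cells. CTSG, the cathepsin G gene, was at 3982, 4463 and 3914 and 6448, 7012 and 6724 (log2 0.71 ± 0.093, adjusted p = 0.00029), and both lines lay below the parental 11187, 9565 and 11814. Both lines lay above parental cells for LYZ and below them for CTSG.

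Several genes of later neutrophil stages were read in HRD and hardly in HRA. The table holds 17 such genes and 9 were tested, 6 of them called higher and 0 lower, but low genes such as S100A8, CHI3L1 and FPR2 passed the filter only through HRD, so the count is a description. S100A8 and S100A9 encode the subunits of calprotectin, an abundant protein of the neutrophil cytosol. S100A8 had 2 reads over the HRA libraries and 194 over HRD, a ratio of 80.3 (95% counting interval 21.9 to 667.7). S100A9 was at 3.49, 10.8 and 12.2 in HRA and 139.9, 310.3 and 181 in HRD (log2 4.49). Its HRA libraries alone would not have carried it past the filter either, so it is given with no test. TCN1, a vitamin B12-binding protein of secondary granules, was at 23.0, 28.4 and 20.7 and 87.3, 119 and 130.4 (log2 2.17 ± 0.26, adjusted p = 0.000171). All HRD libraries of these 3 genes lay above all HRA and parental libraries. The classical secondary granule genes LTF and CAMP stayed low, with 12 and 5 reads over HRA and 15 and 7 over HRD.

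CHI3L1, a secreted chitinase-like protein, had 4.19, 0 and 2.44 normalized reads in HRA and 218, 169 and 243 in HRD, with 40.4, 38.0 and 88.4 in parental cells. HRD lay above and HRA below all parental libraries.

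The NADPH oxidase, which makes superoxide in phagocytes, had 5 of its 9 tested subunit genes higher and 1 lower, with a median of 0.60. NCF1 and NCF4 encode its cytosolic subunits p47 and p40 (phox). NCF4 was at 101, 141 and 90.2 in HRA and 535, 1115 and 1075 in HRD (log2 2.98 ± 0.27, adjusted p = 2.38e-05). NCF1, which has pseudogene copies that can share its reads, was at 12.6, 21.6 and 6.09 and 87.3, 258 and 142 (log2 3.52). Its HRA libraries alone would not have carried it past the filter, so it is given with no test. The 5 higher subunit genes include NCF1. No HRA library reached the lowest HRD library for NCF1 or NCF4.

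CYBB, the catalytic membrane subunit, was at 324, 359.8 and 349.7 in HRA, 797, 1068 and 695 in HRD and 84.7, 81.0 and 94.4 in parental cells, so both lines lay above parental cells and HRD above HRA (log2 1.28 ± 0.16, adjusted p = 0.000209). C17orf62, which encodes the oxidase chaperone EROS, was lower, differing by −0.62 ± 0.15 (adjusted p = 0.00854). CYBA, the partner of CYBB, differed by 0.11 and was not called.

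**Figure D4:**
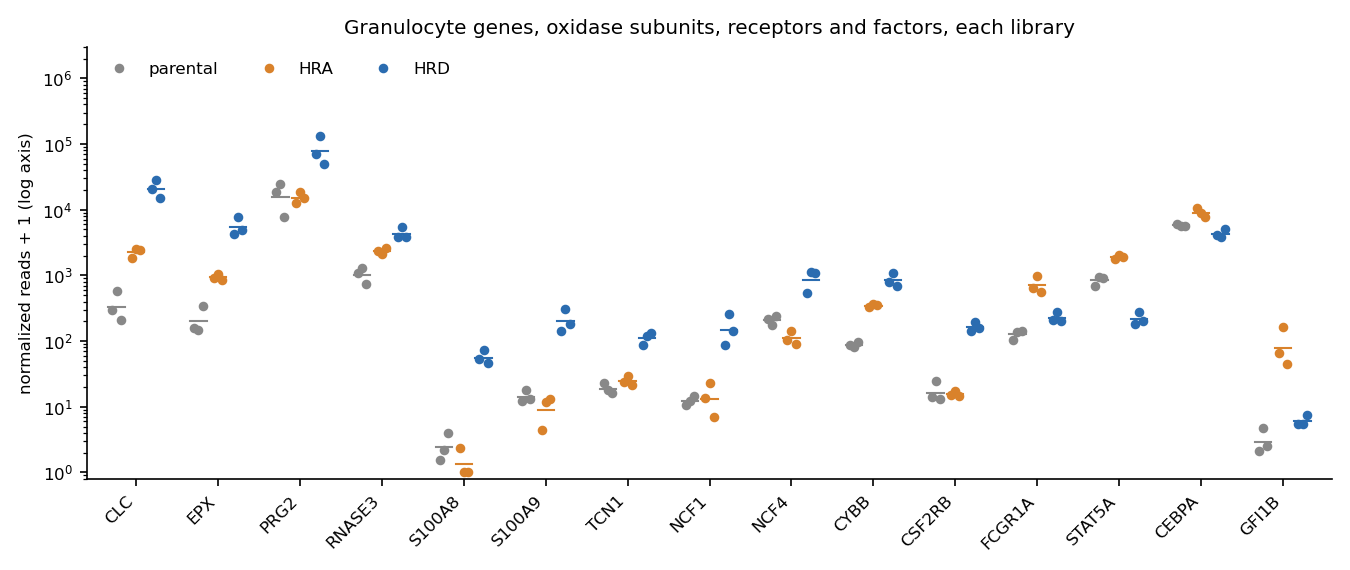
Normalized reads + 1 (log y axis) of 15 myeloid genes in parental (grey), HRA (orange) and HRD (blue) libraries. Points are libraries and short lines are means on the log scale. HRD is highest for the eosinophil genes, S100A8, S100A9 and the oxidase genes, and HRA is highest for FCGR1A, STAT5A, CEBPA and GFI1B.

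Of 13 tested monocyte and macrophage genes, 3 were higher and 4 lower, 1 of each reaching the filter only in the line where it was higher, and these counts ran from 2 to 4 and from 3 to 5 over all alternatives. FCGR1A, the high-affinity IgG receptor, was at 637, 981 and 552 in HRA and 206, 274 and 201 in HRD (log2 −1.64 ± 0.22, adjusted p = 0.000369), although near-identical copies of this gene can share its reads. KLF4, a monocyte transcription factor, had 5 reads over the HRA libraries and passed the filter only through HRD.

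Of 46 tested myeloid transcription factors, 10 were higher and 10 lower, of which 3 and 1 reached the filter only in the higher line. The higher count was 2 without replicate 2 of each group, 4 without HRA replicate 1 or HRA replicate 3, and 6 without HRD replicate 2. CEBPA, needed for granulocyte commitment, was at 10462, 8965 and 7741 in HRA, 4097, 3865 and 5133 in HRD and 6090.1, 5677 and 5636 in parental cells, with HRA above and HRD below the parental libraries (HRD minus HRA log2 −1.05 ± 0.12, adjusted p = 0.000156). ETS1 was lower, differing by −1.43 ± 0.20 (adjusted p = 0.000405), IKZF2 by −0.91 ± 0.12 (adjusted p = 0.000318) and RUNX1 by −0.54 ± 0.075 (adjusted p = 0.000446). RUNX3 was higher, at 222, 298 and 195 in HRA and 545, 682 and 481 in HRD, near the parental 615, 575 and 534 (log2 1.26 ± 0.17, adjusted p = 0.000383).

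GFI1B, a transcriptional repressor that acts within the erythroid and megakaryocytic lineages, was at 65.6, 161 and 43.9 in HRA and 4.46, 4.52 and 6.41 in HRD. It reached the filter only in HRA. CEBPE differed by −0.25 ± 0.24 (adjusted p = 0.453), SPI1 by −0.19 ± 0.15 (adjusted p = 0.386) and MYC by −0.32 ± 0.12 (adjusted p = 0.0635), and none of these 3 passed. MYC passed without HRD replicate 3 (adjusted p = 0.0413), without parental replicate 2 (0.044) and with DESeq2 (0.0404).

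Of 20 tested cytokine receptors, 4 were higher and 2 lower in HRD (30% called, against 30.5% of all tested genes). Higher calls numbered 2 without replicate 2 of each group. CSF2RB, the shared beta chain of the receptors for GM-CSF, IL-3 and IL-5, was at 14.0, 16.2 and 13.4 in HRA and 141, 196 and 157 in HRD (log2 3.41 ± 0.29, adjusted p = 1.41e-05). IL6R was at 351, 352 and 475 in HRA, 1993, 1530.5 and 1478 in HRD and 1818, 1692 and 1602 in parental cells, so HRA stood apart and HRD lay with parental cells (log2 2.09 ± 0.14, adjusted p = 3.13e-06). FAS, a death receptor, was lower in HRD, at 334, 409.9 and 314 in HRA and 133, 178 and 183 in HRD (log2 −1.10 ± 0.17, adjusted p = 0.000794).

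STAT5A and STAT5B transmit signals of cytokine receptors such as those that share CSF2RB, and their genes are neighbours on chromosome 17. STAT5A was at 1783, 2048 and 1873 in HRA, 182, 276 and 198 in HRD and 691, 930.0 and 920.3 in parental cells, with no overlap between any of the groups (HRD minus HRA log2 −3.14 ± 0.16, adjusted p = 2.52e-07). STAT5B was lower, differing by −1.30 ± 0.098 (adjusted p = 5.93e-06). SUCNR1, the succinate receptor, was at 3810.5, 4951 and 2489 in HRA and 769, 972 and 1141 in HRD, and both lines lay above the parental 139.7, 184 and 168 (log2 −1.93 ± 0.22, adjusted p = 0.000139).

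Of 27 tested adhesion genes, 4 were higher and 6 lower. The lower count was 3 without HRA replicate 2 or HRD replicate 3. CD44, the hyaluronan receptor, was at 15076, 17984 and 13675 in HRA and 7598, 7865 and 7211 in HRD (log2 −1.03 ± 0.10, adjusted p = 4.83e-05). ITGB2, the beta chain of the leukocyte integrins, was higher by 1.20 ± 0.20 (adjusted p = 0.00139). Of 5 tested B cell genes, 0 were higher and 3 lower, 1 of them (CD79A) reaching the filter only in HRA. PAX5 was lower, differing by −1.37 ± 0.11 (adjusted p = 1.2e-05), and the surrogate light chain gene IGLL1 by −3.40 ± 0.35 (adjusted p = 6.08e-05), while BACH2 was at 55.8, 81.2 and 45.1 in HRA and 141, 143 and 188 in HRD and was not called (adjusted p = 0.11). The higher count of this list was 1 with a pseudocount of 5, in the 6 libraries alone, without parental replicate 3 and with edgeR or DESeq2. Of 2 tested T and NK cell genes, GZMA, a granzyme, was lower, differing by −1.28 ± 0.14 (adjusted p = 0.000112), and CD247 was not called. KRT8, an epithelial keratin, was higher by 1.56 ± 0.23 (adjusted p = 0.000673).

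Of 49 tested DNA repair genes that act on broken or stalled DNA, 4 were higher and 19 lower in HRD, with a median of −0.14. Without replicate 2 of each group these counts were 2 and 12. BRCA1, which acts in homologous recombination, was at 5959.7, 6229.6 and 5977 in HRA, 2351, 2312 and 2237 in HRD and 4150.0, 5003 and 4675 in parental cells. The 3 groups did not overlap, with HRA highest and HRD lowest (HRD minus HRA log2 −1.40 ± 0.08, adjusted p = 6.4e-07).

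EXO1, an end-resection nuclease, was lower, differing by −0.85 ± 0.086 (adjusted p = 5.49e-05), XRCC2, a homologous recombination gene, by −0.82 ± 0.11 (adjusted p = 0.000357) and MRE11 by −0.65 ± 0.088 (adjusted p = 0.00038). SLFN11, a factor that sensitizes cells to drugs acting in replication, was at 4971, 4879 and 5264 in HRA and 3654, 3349 and 3398 in HRD (log2 −0.54 ± 0.08, adjusted p = 0.000626). LIG4, the ligase of end joining, was higher by 0.71 ± 0.10 (adjusted p = 0.000532). TP53BP1 differed by 0.13 ± 0.082 and did not pass (adjusted p = 0.241).

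Of 55 tested cell cycle genes, 12 were higher and 12 lower, and the higher count was 6 without replicate 2 of each group. The D cyclins, which start the cycle with CDK4 and CDK6, differed in opposite directions. CCND1 was at 591, 689 and 368 in HRA and 2342, 2733 and 2010.1 in HRD (log2 2.14 ± 0.28, adjusted p = 0.000325), and CCND2 at 5186, 4862 and 5299 and 1866, 1642 and 1291 (log2 −1.69 ± 0.12, adjusted p = 4.1e-06). CCND3 was higher by 0.74 ± 0.11 (adjusted p = 0.00062). The origin-licensing gene CDC6 was lower, differing by −1.02 ± 0.081 (adjusted p = 8.91e-06), and the mitotic kinase PLK1 higher by 0.85 ± 0.10 (adjusted p = 0.000157). Of 14 tested replication-dependent histone genes, 6 were higher and 0 lower, with a median of 0.51, although these families share near-identical sequence and most of their transcripts lack a poly(A) tail. HIST1H2BD was at 46.1, 44.6 and 43.9 in HRA and 125, 163 and 125 in HRD (log2 1.58 ± 0.20, adjusted p = 0.00023).

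Of 15 tested BCL2 family genes, 2 were higher and 1 lower (20% called, against 30.5% of all tested genes), and these counts ran from 0 to 3 and from 0 to 1 over all alternatives. BCL2 itself differed by −0.19 ± 0.11 (adjusted p = 0.192). MCL1 was higher by 0.40 ± 0.087 (adjusted p = 0.00574), a call that ended without replicate 2 of each group (adjusted p = 0.0904). Of 27 tested p53 targets, 2 were higher and 4 lower (22.2% called), and DDB2, a damage-recognition gene, was lower, differing by −0.76 ± 0.16 (adjusted p = 0.00426). The lower count was 2 without replicate 2 of each group or without HRA replicate 3.

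Of 76 tested cytosolic ribosomal protein genes, 0 were higher, 37 lower and 39 not called in HRD, with a median of −0.41. The lower count was 24 without HRA replicate 1 and 23 without HRA replicate 2. RPL27 was at 88172, 100130.3 and 83331 in HRA and 33321, 38658 and 32367 in HRD (log2 −1.38 ± 0.12, adjusted p = 1.72e-05). RPS19 was lower, differing by −1.34 ± 0.13 (adjusted p = 4.77e-05), RPLP0 by −1.22 ± 0.13 (adjusted p = 6.39e-05) and RPS2 by −1.12 ± 0.15 (adjusted p = 0.000408). The list's median log2 difference from parental cells was 0.16 in HRA and −0.15 in HRD. Many of these genes have processed pseudogenes that can share their reads.

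Of 34 tested targets of NRF2, the transcription factor of the oxidative stress response, 10 were higher, 1 of which reached the filter only in HRD, and 1 was lower, with a median of 0.16. The called share was 32.4%, against 30.5% of all tested genes. This list includes ABCC1, described above. NFE2L2, which encodes NRF2, was at 1224, 1215 and 1237 in HRA and 1880.2, 1758 and 1745 in HRD (log2 0.55 ± 0.083, adjusted p = 0.000743). GCLM, a subunit of the enzyme that limits glutathione synthesis, was at 970.2, 992 and 966 and 2010.2, 1569.6 and 1614 (log2 0.82 ± 0.12, adjusted p = 0.00052). ME1, malic enzyme, was higher by 0.85 ± 0.098 (adjusted p = 0.000133) and PRDX6, a peroxiredoxin, by 0.58 ± 0.08 (adjusted p = 0.000423).

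Glutathione transferase and metallothionein genes had 4 higher and 3 lower of 19, and 3 to 4 and 1 to 5 over all alternatives, with 1 lower without replicate 2 of each group and 5 without HRD replicate 2. MGST3 was higher by 0.67 ± 0.094 (adjusted p = 0.000435) and MGST1 lower, differing by −0.55 ± 0.086 (adjusted p = 0.000902), both of them microsomal glutathione transferases.

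Nuclear genes of oxidative phosphorylation had 12 higher and 4 lower of 50 (32% called, against 30.5% of all tested genes), with a median of 0.13. Higher calls numbered 5 without replicate 2 of each group and 7 without any single HRA library. SDHC, a subunit of succinate dehydrogenase, was higher by 0.78 ± 0.086 (adjusted p = 9.42e-05) and NDUFS1, of complex I, by 0.55 ± 0.081 (adjusted p = 0.000622). COX6C, of complex IV, was lower, differing by −0.48 ± 0.085 (adjusted p = 0.00193). Glycolysis and hypoxia genes had 2 higher and 0 lower of 31 (6.45% called). These counts ran from 1 to 5 and from 0 to 4 over all alternatives, with 3 lower without HRD replicate 2. PKM, the pyruvate kinase, was higher by 0.64 ± 0.12 (adjusted p = 0.00302).

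Fatty acid genes had 5 higher and 5 lower of 29, and 1 of the lower, LPL, reached the filter only in HRA. The higher count was 2 without replicate 2 of each group and 3 without HRA replicate 1, HRA replicate 3 or HRD replicate 2. CPT1A, the carrier that admits fatty acids to mitochondrial oxidation, was at 3119, 3385 and 3064 in HRA, 161, 184 and 237 in HRD and 2181, 2665 and 2376 in parental cells. HRD lay far below both, by 16.6-fold against HRA (log2 −4.05 ± 0.13, adjusted p = 4.14e-09).

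In arginine and serine metabolism 4 genes were higher and 5 lower of 18, and the lower count was 3 without replicate 2 of each group. ASS1, argininosuccinate synthase, was at 86.6, 116 and 85.3 in HRA, 505, 547 and 303 in HRD and 686, 536 and 468 in parental cells, with HRA low (log2 2.19 ± 0.23, adjusted p = 6.91e-05). SLC7A2, a cationic amino acid transporter, was at 3591, 3149 and 3464 and 1119.7, 806 and 912 (log2 −1.86 ± 0.11, adjusted p = 9.94e-07). GLUL, glutamine synthetase, was 2.00-fold higher (adjusted p = 0.00229).

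Proteasome genes had 11 higher and 4 lower of 40, and 1 of the lower, PSMD5, reached the filter only in HRA. The higher count was 5 without replicate 2 of each group and 7 without any single HRA library, HRD replicate 1 or HRD replicate 2. Beside PSMD5, the lower members included PSMD3 (−0.54 ± 0.085, adjusted p = 0.000991) and PSMB3 (−0.68 ± 0.13, adjusted p = 0.0025), both on chromosome 17. PSMA4 was higher by 0.50 ± 0.08 (adjusted p = 0.001). Cholesterol synthesis genes had 3 higher and 0 lower of 24 (12.5% called, against 30.5% of all tested genes). Their higher count ran from 0 to 7 over all alternatives, with 0 without HRA replicate 1, HRA replicate 3 or HRD replicate 2 and 1 without HRD replicate 3. Genes of the unfolded protein response and ATF4 had 5 higher and 2 lower of 33 (21.2% called), with 2 higher without replicate 2 of each group. MANF, a secreted chaperone-like factor, was higher by 0.71 ± 0.10 (adjusted p = 0.00062) and ASNS, asparagine synthetase, lower, differing by −0.71 ± 0.13 (adjusted p = 0.00189).

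Interferon-stimulated genes had 8 higher and 3 lower of 35 (31.4% called, against 30.5% of all tested genes). The higher count was 3 without replicate 2 of each group or without HRA replicate 1, HRA replicate 3 or HRD replicate 2, and 5 without HRD replicate 3. The lower count was 1 without HRA replicate 1, HRA replicate 2 or HRD replicate 3. IFITM2, which restricts entry of viruses, was at 3414, 4398 and 3333 in HRA and 7022, 11033 and 8382 in HRD (log2 1.23 ± 0.16, adjusted p = 0.000233). Genes of NF-kB and inflammation had 4 higher and 5 lower of 26. The higher count was 2 without HRA replicate 1 or HRA replicate 3, and the lower count was 2 or 3 without any single HRA library, HRD replicate 1 or HRD replicate 3. IER3, an early response gene, was higher by 2.85 ± 0.54 (adjusted p = 0.00279) and IL18 lower, differing by −1.36 ± 0.20 (adjusted p = 0.00062). MHC class I and antigen processing genes had 2 higher and 3 lower of 18 (27.8% called), and 1 to 3 and 0 to 5 over all alternatives. Lower calls numbered 0 without HRD replicate 1 and 1 without HRA replicate 1, HRA replicate 2, HRD replicate 3 or replicate 2 of each group. PDIA3, a chaperone of MHC loading, was higher by 0.64 ± 0.084 (adjusted p = 0.000299).

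Of 16 tested HOX genes and cofactors, 5 were higher and 2 lower, and the higher count was 3 without replicate 2 of each group. HOXC9, HOXC8, which reached the filter only in HRD, and HOXC4 were a run of 3 neighbours at least 2-fold higher, and HOXC4 was at 32.1, 41.9 and 60.9 in HRA and 119, 148 and 192 in HRD (log2 1.76 ± 0.28, adjusted p = 0.000946). HOXA13 was lower, differing by −0.83 ± 0.15 (adjusted p = 0.002). Of 18 clock genes, 3 were higher and 4 lower, and 1 of the lower, ARNTL, reached the filter only in HRA. These counts ran from 0 to 4 and from 3 to 4 over all alternatives. Higher calls numbered 0 without HRA replicate 1 and 1 without HRA replicate 2, HRD replicate 3 or replicate 2 of each group. ARNTL, the BMAL1 gene at the core of the clock, was at 78.9, 86.6 and 68.2 in HRA, 0.992, 0 and 2.14 in HRD and 57.2, 95.7 and 76.4 in parental cells, so that only HRD was near 0. BHLHE41, a clock repressor, was lower, differing by −1.17 ± 0.11 (adjusted p = 2.31e-05).

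SUMO enzyme genes had 4 higher and 3 lower of 25 (28% called, against 30.5% of all tested genes). The higher count was 2 without replicate 2 of each group, without HRA replicate 1 or without HRA replicate 2. The lower count was 0 without replicate 2 of each group. DESI2, a SUMO protease, was higher by 0.51 ± 0.10 (adjusted p = 0.00351). TGF-beta and SMAD genes had 3 higher and 5 lower of 27 (29.6% called). These counts ran from 2 to 5 and from 3 to 5 over all alternatives. The lower count was 3 without HRA replicate 2. The higher count was 5 in the 6 libraries alone, without parental replicate 3 and with DESeq2. BMPR2, a type II receptor, was at 200.3, 246 and 203 in HRA and 563, 494 and 532 in HRD (log2 1.29 ± 0.15, adjusted p = 0.000129), and ACVR1B, an activin receptor, was lower, differing by −0.73 ± 0.097 (adjusted p = 0.000329).

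The direction of the differences varied by chromosome. On chromosome 8, 9 of 369 tested protein-coding genes were higher and 167 lower, with a median of −0.34, and on chromosome 19, 20 of 757 were higher and 227 lower, with a median of −0.29. On chromosome 12 these counts were 26 and 221 of 630 (median −0.24), and on chromosome 7 they were 19 and 155 of 498 (median −0.23). Chromosomes 4, 21 and X leaned the other way, with 107 higher and 13 lower of 403, 29 and 4 of 106, and 97 and 20 of 342, and medians of 0.20, 0.21 and 0.21. The direction of each of these medians was the same in all 20 alternatives. Without replicate 2 of each group the lower counts of chromosomes 8, 19, 12 and 7 were 90, 126, 111 and 70, and the higher counts of chromosomes 4, 21 and X were 42, 14 and 47. Without HRA replicate 1 the lower counts of chromosomes 19 and 7 were 147 and 103, and the higher counts of chromosomes 4, 21 and X were 64, 18 and 62. Without HRA replicate 2 chromosome 4 had 67 higher. The smaller counts ran over all alternatives from 3 to 11 on chromosome 8, 9 to 26 on chromosome 19, 18 to 34 on chromosome 12, 11 to 27 on chromosome 7, 4 to 23 on chromosome 4, 2 to 8 on chromosome 21 and 8 to 23 on chromosome X. DNA copy number was not measured here, and its part in these values was not tested.

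The chromosome medians against parental cells differed in which line stood apart. On chromosome 8 the median difference from parental cells was 0.49 in HRA and 0.16 in HRD, on chromosome 19 it was 0.30 and 0.02, and on chromosome 7 0.27 and 0.02. On chromosome 12 it was −0.04 in HRA and −0.28 in HRD, and on chromosome 20 0.00 and −0.21. HRA was therefore the line farther from parental cells on chromosomes 7, 8 and 19, and HRD on chromosomes 12 and 20. These medians share the parental libraries and are given without a test.

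The longest stretch was on chromosome 17, where running medians of 25 neighbouring genes lay at or below −0.5. The HRD minus HRA differences themselves picked out the stretch, so its counts and median had to lean to lower and are only a description. Of its 160 tested protein-coding genes 0 were higher and 137 lower, with a median of −0.78, and the median difference from parental cells was −0.05 in HRA and −0.84 in HRD. BRCA1, STAT5A, STAT5B, TOP2A, CDC6, RPL27, RPL23, PSMD3 and PSMB3 lie in this stretch. Counted over the same 160 genes, its lower count ran from 123 without replicate 2 of each group to 142, and its higher count was 0 or 1. Runs of at least 3 consecutive genes at least 2-fold lower there were CCL5 to PIGW (6 genes), CACNB1 to FBXL20 (3), GHDC to STAT5A (3) and RPL27 to BRCA1 (4). CACNB1, a calcium channel subunit, was at 279, 253 and 212 in HRA and 12.9, 25.6 and 21.4 in HRD, beside 15.7, 13.5 and 19.5 in parental cells, so HRA was the line that stood apart for this gene (log2 −3.61 ± 0.28, adjusted p = 7.54e-06).

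On chromosome 1 the longest stretch above 0.5 ran from PEA15 to MPZL1, with 35 higher and 2 lower of 51 genes and a median of 0.55. SDHC and MGST3 lie in this stretch. The stretch was picked out in the same way, so these values too are only a description. The median difference from parental cells there was −0.46 in HRA and 0.16 in HRD. PRDX6 lies farther along the chromosome, where the running median was also above 0.5 (0.52). Also on chromosome 1, CD1D, MNDA, IFI16 and AIM2 formed a run of 4 at least 2-fold higher, although AIM2 reached the filter only in HRD, and MNDA, a myeloid nuclear antigen, was at 1956, 1585 and 2098 in HRA and 5327, 5308 and 5895 in HRD (log2 1.56 ± 0.18, adjusted p = 0.000134). The call of CD1D ended without replicate 2 of each group, HRA replicate 2 or HRD replicate 3, with an adjusted p of up to 0.103. On chromosome 22, IFT27, NCF4, CSF2RB and TST formed another run of 4. IFT27, a transport gene of cilia, was higher by 1.77 ± 0.18 (adjusted p = 4.71e-05).

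**Figure D5:**
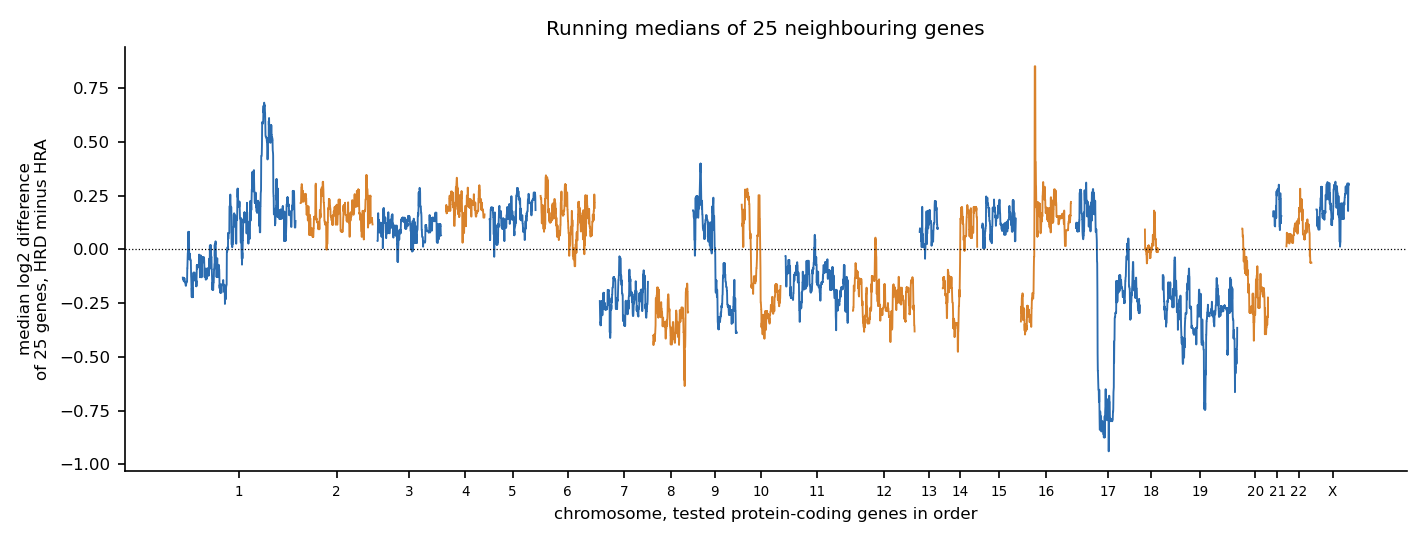
Running median of the log2 difference, HRD minus HRA, over 25 neighbouring tested protein-coding genes (y axis), in gene order along chromosomes 1 to 22 and X (x axis). Colours only separate neighbouring chromosomes. The line falls to −0.94 within chromosome 17, rises to 0.85 at C16orf45 on chromosome 16 and stays below 0 along chromosomes 7 and 8.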

How the data were processed

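Only the deposited table was used. The submitters' processing notes name HTSeq 0.11.1, DESeq2, Cufflinks 2.2.1, Bowtie2 2.3.5.1, Picard and TopHat2 2.1.1, with the build hg19, and give no roles. The annotation and the strand setting of counting are not given in the sources used here, although the kit keeps strand. The authors deposited a signal per gene, reads over a library size factor. All values were whole multiples of a constant per library (tolerance 0.001), so reads were recovered, and median-of-ratios factors recomputed from them equalled those of the table.

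Values were tested as log2(value + 1) in 1 limma 3.58.1 model (R 4.3.3) with a variance trend over all 9 libraries, which share the estimate of spread. Genes needed a value of 10 in 3 of the 6 HRA and HRD libraries. Calls are Benjamini-Hochberg adjusted p below 0.05 over all 12347 genes. Errors beside log2 differences are SE, and low genes' folds are understated by the added 1. An exact permutation test of 3 against 3 cannot go below p = 0.1, so it was not used. The fit was checked on simulated data.

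Alternatives were pseudocounts of 0.5 and 5, other filters, TMM scaling, the 6 libraries alone, a replicate block, leaving out libraries, and edgeR 4.0.16 and DESeq2 1.42.0 on the reads. The members and gene lists were chosen with earlier results of these data known, so lists carry no test. Named genes are the 12 largest differences each way with a mean of at least 100 and no overlap, 35 genes of a fixed list, the 6 smallest adjusted p in each list, members of runs, and the nearly unread genes. The fixed list holds genes that stand out in this comparison (FOPNL, NDE1, PSMD5 and CYB5A), so it is not taken as independent of these data. NOMO1, CYBA, TRIM28, LTF, CAMP, SMG1, ARL6IP1, COQ7, XYLT1, BFAR, PARN, BACH2 and CD247 were named after their values were seen. Gene order, types and promoters came from RefSeq GRCh38.p14 by symbol (19659 genes matched). No coordinates of the counting build were used. Tables used Python 3.11.15 with pandas 2.3.3, scipy 1.17.1 and matplotlib 3.10.9.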

Additional observations from a re-analysis of the deposited data

How the results depend on the processing

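Of the 273 named genes called, 195 kept their call and direction in all 20 alternatives. Leaving out libraries moved the total from 3768 calls to between 1812 and 3926, the higher calls to between 762 and 1849 and the lower ones to between 1050 and 2077. The count at least 2-fold apart ran from 599 to 777 in the same fits, with 269 to 372 higher and 330 to 433 lower. With a value of at least 50 required, 475 genes were at least 2-fold apart, 205 higher and 270 lower, since fewer genes were tested, and higher calls numbered 1 among efflux, 5 among eosinophil, 3 among late neutrophil, 6 among myeloid transcription factor and 3 among histone genes. With libraries left out, the log2 difference of CBR1, which was not called, ran from −0.10 to 0.048 (without HRA replicate 1) and was 0.032 without HRD replicate 1, and that of CEBPE, also not called, ran from −0.46 to 0.028 (without HRD replicate 1). TMM scaling called 1605 higher and 2011 lower, edgeR 1755 and 1996, and DESeq2 1974 and 2124. Deviations of same-numbered HRA and HRD libraries from their group means correlated at −0.06, 0.42 and 0.23, and HRA replicate 1 correlated best with HRD replicate 3 (0.089), so the numbers were not treated as pairs, although parental and HRA libraries of the same number correlated at 0.24, 0.40 and 0.15. With the replicate block 2248 genes were higher and 2401 lower, 4649 in all, RRM2 and MYC passed (adjusted p = 0.0167 and 0.0143), and 7 rather than 4 adhesion genes were higher. Depth limits genes near 3 reads, such as ABCB1, ABCG2, CDA and ELANE, and counting intervals cover counting error only. The series calls the libraries biological replicates and names no separate derivations of a line, so p-values measure the spread between these libraries.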
